A study of Mus musculus with 8 samples.

Results

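Transfer RNA Cys-GCA is the tRNA that carries cysteine to the ribosome, and GCA is its anticodon read from 5′ to 3′. The fragments described here are all sequences of a table of tRNA-derived fragments (tRFs) whose tRNA name contains Cys-GCA, 135 of 2226 sequences. They came from small RNA of pancreatic β-cells, sorted from wild type and from db/db mice. The members were found by name, but this isoacceptor, that is, the tRNA with this anticodon, was chosen by the levels of its 5′ fragments in these libraries, which had been found higher in db/db β-cells. Differences between the genotypes are therefore described here with values and errors, and no p-value is given for them. A test of genotype was run on the whole table, and its calls for the members are given as a description only.

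The β-cell is the insulin-secreting cell of the pancreatic islet. The db/db mouse lacks a working leptin receptor and becomes obese and diabetic. The mice were males of 8 weeks of age, and both genotypes were on the BKS background. There were 4 libraries per genotype, each from β-cells sorted by their autofluorescence from islets pooled over several animals, more of them wild type than db/db, with no drug or diet treatment stated in the labels. A library is thus a pool and not a single animal. The table holds fragments of tRNAs only, so the mRNAs that define a β-cell could not be looked up in it. In such bulk samples, fewer cells of a kind and less RNA per cell cannot be told apart.

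The tRNA is made as a precursor, cut at both ends and given the bases CCA at its 3′ end by an enzyme that adds nucleotides, since mouse tRNA genes do not encode them. The last A is where the amino acid is attached. The mature molecule folds into an acceptor stem, a D arm, an anticodon arm and a T arm, and single-stranded loops are where ribonucleases such as angiogenin are known to cut. Fragments are named 5′ when they begin at the first base, 3′ when they end in CCA, and internal otherwise. In stress, a nuclease can also remove the last base of CCA, and the CCA-adding enzyme can put it back.

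Counts of unique molecules were summed per library over all tRFs, which gave 582165 to 2946290 counts per library. Cys-GCA had 3351 to 13496 of them, 56199 in all, and ranked 2 of 48 tRNA names by its number of sequences but 21 by its share of the counts. That share was 0.472%, 0.662%, 0.638% and 0.755% in wild type 1 to 4 and 0.898%, 0.686%, 0.458% and 1.06% in db/db 1 to 4. The groups overlapped, at 0.632% ± 0.118 and 0.776% ± 0.262 (SD, n = 4 libraries each here and below). Library db/db 3 was the most deeply sequenced and had the lowest Cys-GCA share. Levels are given as CPM, that is, counts per 1000000 tRF counts after TMM scaling of the library totals.

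RefSeq lists 57 genes of this tRNA in the mouse (assembly GRCm38.p6), all named n-TCgca with a number. Of these, 48 lie on chromosome 6 within chr6:48133937-48363603, 1 more lies elsewhere on chromosome 6, 5 lie on chromosome 11, 2 on chromosome 9 and 1 on chromosome 17. None of the 57 lies inside a protein-coding gene of the annotation, and 56 are 72 bases long. Fragments were not assigned to single genes, since sequences of the genes were not used here. Positions were taken instead from a tRNA put together from the overlapping fragments themselves, which came to 75 bases, the 72 of the gene and CCA. It is shown because all positions below refer to it, written as DNA with the anticodon and CCA in capitals:

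tRNA Cys-GCA: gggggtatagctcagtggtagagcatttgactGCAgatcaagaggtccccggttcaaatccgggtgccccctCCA

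Its anticodon was at bases 33 to 35. The 7 base pairs of the acceptor stem (bases 1 to 7 with 65 to 71), 4 of the D stem, 5 of the anticodon stem and 5 of the T stem could all form in this sequence, as Watson-Crick pairs except 1 G-T pair in the acceptor stem and 1 in the anticodon stem. The D loop spanned bases 14 to 20, the anticodon loop bases 31 to 37 and the T loop bases 53 to 59. Of the 135 fragments, 116 lay in it without a change and 19 with 1 or 2 changed bases. No fragment lay within a fragment listed for another isoacceptor.

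The fragments fell into 4 sets. There were 12 that began at base 1, 27 that ended in CCA, 11 that began in the T arm or just before it and stopped 1 or 2 bases short of the end of CCA, and 85 internal ones. The most abundant ones of each set are shown, since the results turn on them, with the last base of the 5′ fragments, the anticodon of the internal ones and the bases of CCA that are left in capitals:

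5′, bases 1 to 24, 24 nt: gggggtatagctcagtggtagagC
5′, bases 1 to 25, 25 nt: gggggtatagctcagtggtagagcA
5′, bases 1 to 18, 18 nt: gggggtatagctcagtgG
internal, bases 24 to 53, 30 nt: catttgactGCAgatcaagaggtccccggt
internal, bases 27 to 53, 27 nt: ttgactGCAgatcaagaggtccccggt
internal, bases 28 to 53, 26 nt: tgactGCAgatcaagaggtccccggt
3′, bases 52 to 75, 24 nt: gttcaaatccgggtgccccctCCA
3′, bases 47 to 75, 29 nt: ccccggttcaaatccgggtgccccctCCA
3′, bases 60 to 75, 16 nt: ccgggtgccccctCCA
short of CCA, bases 52 to 74, 23 nt: gttcaaatccgggtgccccctCC

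The internal sequences from bases 24, 27 and 28 end together at base 53, the first base of the T loop. The 23 nt and 24 nt sequences from base 52 differ in the last A alone. The table holds fragments of 16 to 30 nt, so longer tRNA fragments cut at the anticodon were not analysed here.

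**Figure D1:**
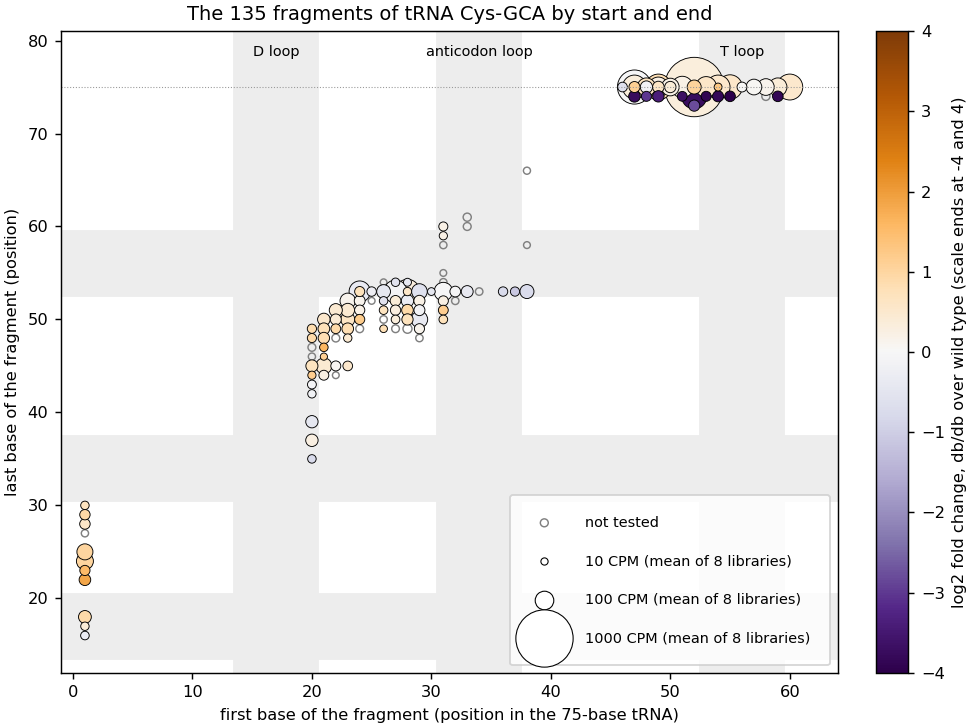
Each circle is 1 of the 135 Cys-GCA fragments, placed by its first base (x axis) and last base (y axis) in the 75-base tRNA, with an area that grows with its mean CPM over 8 libraries. Colour is the log2 fold change of db/db over wild type (orange higher, purple lower, open grey circles not tested for want of counts), shaded bands are the loops, and the dark purple circles just under the dotted line at base 75 are the fragments short of CCA.

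Cys-GCA fragments were made up differently from other tRFs. In each library, the share of counts in each class and the mean length were set against the same measures over all other tRFs, by a two-sided exact paired permutation test over the 8 libraries, adjusted over 5 tests by the Benjamini-Hochberg method. The smallest p-value such a test can give is 0.0078. The internal class, counted with the fragments short of CCA, took 54.8%, 43.4%, 64.9% and 38.9% of Cys-GCA counts in wild type 1 to 4 and 37.9%, 36.4%, 28.9% and 48.4% in db/db 1 to 4. In other tRFs it took 1.57% to 7.44%. The mean was 44.2% ± 11.5 in Cys-GCA and 3.52% ± 1.83 in other tRFs, higher in 8 of 8 libraries (exact permutation p = 0.0078, adjusted p = 0.013). Without the fragments short of CCA, the internal share of Cys-GCA was 37.1% ± 11.6. The share ending in CCA was lower in 8 of 8 libraries, at 50.5% ± 11.8 against 92.6% ± 2.37 (exact permutation test, adjusted p = 0.013). The class shares of a library add up to its whole, so this follows largely from the internal share and is no separate result.

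The 5′ share was 5.28% ± 2.31 in Cys-GCA and 3.90% ± 1.07 in other tRFs, higher in 7 of 8 libraries. The isoacceptor was chosen on these 5′ counts in the db/db libraries, so the difference is given without a test. It turned to -0.777 percentage points when the 3 most abundant sequences of the table were left out. By genotype, the Cys-GCA 5′ share averaged 3.90% in wild type, where other tRFs had 3.90%, and 6.66% in db/db, where other tRFs had 3.90%.

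Mean lengths were weighted by counts. The 3′ fragments averaged 24.2 nt ± 0.245 in Cys-GCA and 25.03 nt ± 0.387 in other tRFs, and were shorter in 8 of 8 libraries (adjusted p = 0.013 in the exact permutation test). That direction rested on a few sequences of other tRNAs. Without the 3 most abundant sequences of the table, Cys-GCA 3′ fragments were longer by 1.10 nt (adjusted p = 0.013). The 5′ fragments averaged 23.4 nt and 23.03 nt, a difference of 0.355 nt, longer in 5 of 8 libraries, which is given without a test because the isoacceptor was chosen on these counts.

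**Figure D2:**
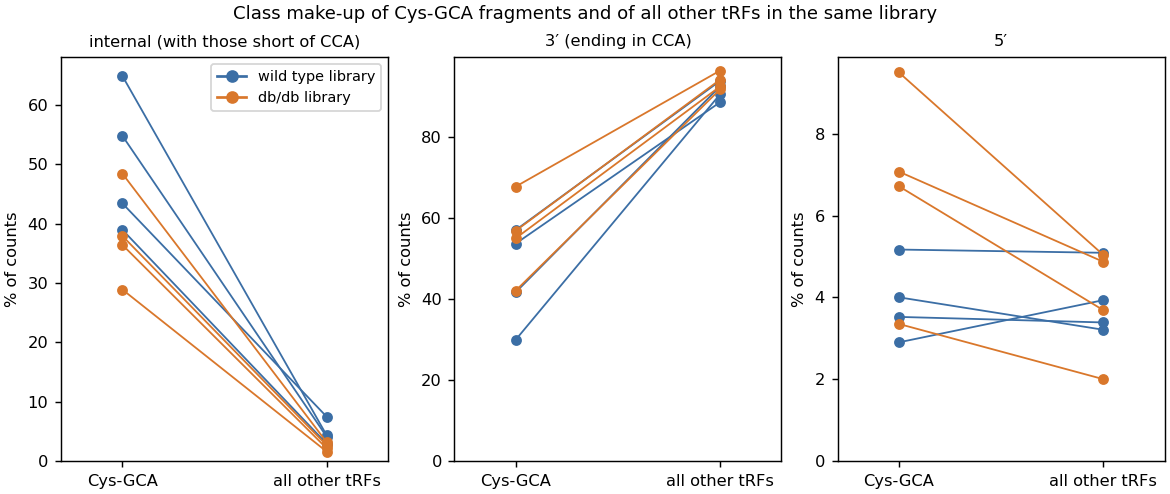
Percent of counts in each class (y axes, which start at 0) in Cys-GCA and in all other tRFs of the same library, joined by a line for each of 4 wild type and 4 db/db libraries. The internal share is higher and the 3′ share lower in Cys-GCA in 8 of 8 libraries, whereas the 5′ share is higher in 7 of 8.

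Across all isoacceptors, Cys-GCA was a main source of internal fragments. The 85 internal sequences, without those short of CCA, held 12.5% ± 3.62 (SD, n = 8) of all counts of that kind and ranked 3 of 41 tRNA names, with Asp-GTC first. They were 85 of 780 such sequences. By genotype this averaged 11.9% for wild type and 13.1% for db/db.

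Most internal fragments held the anticodon loop and ran on past the anticodon arm (bases 26 to 42). They began at bases 20 to 38 and ended at bases 35 to 66. The whole anticodon was present in 79 of 85 sequences and in 94.7% ± 2.59 of the counts. Of the 85, 37 sequences began at bases 20 to 24 and held 42.1% ± 8.10 of internal counts. These bases are the last of the D loop and the 3′ strand of the D stem. The other internal sequences began after them. The 16 sequences that ended at base 53 held 38.8% ± 12.9, and the 52 that ended at bases 44 to 52 held 50.5% ± 11.8. Another 5 ended before base 44 and 12 after base 53. The fragments that reached the length limit of 30 nt were 8, so longer ones from the same starts were not seen here.

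The internal level was 2719, 1324, 3736 and 1964 CPM in wild type 1 to 4 and 2560, 2562, 1548 and 4357 CPM in db/db 1 to 4. The groups overlapped throughout, with means of 2436 ± 1037 and 2757 ± 1169 CPM. The highest library was db/db 4 and the lowest wild type 2. As a family that also counts those short of CCA, the log2 fold change was -0.05 (SE 0.33), and its sign turned under several alternatives, among them RLE factors (0.049) and leaving out wild type 3 (0.14). Of 85 internal sequences 64 had counts enough to be fitted, and 0 of them were called changed by edgeR's quasi-likelihood test at the study's thresholds (adjusted p below 0.1 and fold above 2). By that rule 15.0% of all 1832 fitted sequences were called, 5.57% as higher and 9.44% as lower in db/db. The log2 fold change was above 0 for 42 and below 0 for 22 of the 64, with a median of 0.26 and a range of -1.11 to 1.60, whereas its median over all fitted sequences was 0.00. Internal fragments of other tRNAs had a median of 0.28.

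The fitted sequences were also counted by where they ended. They overlap each other and come from the same 8 libraries, so these numbers are a description and not separate observations. Of 15 fitted sequences that ended at base 53, 3 had a log2 fold change above 0 (median -0.36). Of 40 that ended at bases 44 to 52, 36 did (median 0.48). In CPM the fragments ending at base 53 summed to 1602, 657, 1053 and 663 in wild type 1 to 4 and 809, 751, 816 and 1129 in db/db 1 to 4. Those ending at bases 44 to 52 summed to 885, 522, 2264 and 981 in wild type and to 1429, 1525, 629 and 2846 in db/db. In both sets the genotypes overlapped, and within each genotype the libraries differed by more than the genotype means did. The highest sum was that of wild type 1 for base 53 and of db/db 4 for bases 44 to 52. As a share of internal counts, ends at base 53 took 58.9%, 49.6%, 28.2% and 33.8% in wild type 1 to 4. In db/db 1 to 4 they took 31.6%, 29.3%, 52.7% and 25.9%, so the genotypes overlapped here too.

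Of the named internal sequences, that of bases 28 to 53 had 295, 87.0, 182 and 78.4 CPM in wild type 1 to 4 and 206, 163, 200 and 212 CPM in db/db 1 to 4. Its log2 fold change was 0.29 (SE 0.40). The sequence of bases 24 to 53 had 268, 70.7, 179 and 78.4 CPM in wild type and 88.3, 107, 121 and 144 CPM in db/db, with a log2 fold change of -0.36 (SE 0.41). The db/db values lay within the wild type range for both. The sequence of bases 27 to 53 gave -0.10 (SE 0.38). Among internal fragments the highest log2 fold change, 1.60 (SE 0.65), was that of bases 21 to 47, a rarer fragment of 27 nt that covers the anticodon arm:

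internal, bases 21 to 47, 27 nt: gagcatttgactGCAgatcaagaggtc

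Its level was 5.36, 1.36, 16.9 and 8.53 CPM in wild type and 20.4, 29.0, 9.19 and 40.2 CPM in db/db, and db/db 3 lay within the wild type range.

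**Figure D3:**
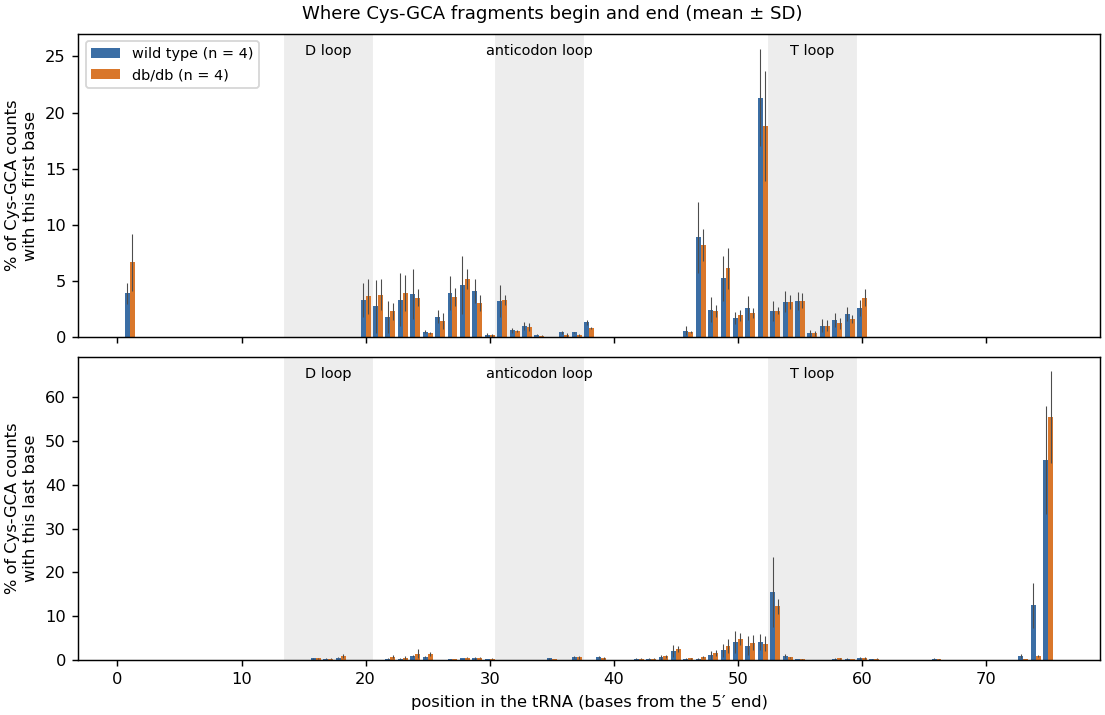
Percent of Cys-GCA counts that begin (upper panel) or end (lower panel) at each base of the tRNA, as mean ± SD of 4 wild type (blue) and 4 db/db (orange) libraries, with the loops shaded. Starts cluster at base 1, at bases 20 to 38 and at bases 46 to 60, and ends at base 53 and base 75, while ends at base 74 are seen mainly in wild type.

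The 5′ fragments, on which the isoacceptor was chosen, had the fewest counts of the 4 sets, 3032 in all or 5.40% of Cys-GCA. Their lengths formed 3 clusters of 4 sequences each. Those that ended at bases 16 to 18, in the D loop, took 24.1% ± 9.73 of 5′ counts (SD, n = 8). Those that ended at bases 22 to 25, at the 3′ strand of the D stem and just past it, took 53.3% ± 10.3, and those that ended at bases 27 to 30, in the anticodon stem, took 22.6% ± 4.14. No 5′ sequence ended at bases 19 to 21 or at base 26.

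Summed 5′ levels were 211, 175, 351 and 296 CPM in wild type 1 to 4 and 486, 486, 189 and 869 CPM in db/db 1 to 4. In db/db, 3 libraries lay above all wild type libraries, db/db 4 highest, and db/db 3 lay among the wild type values. The means were 258 ± 79.9 and 507 ± 279 CPM. As a family (counts summed over the isoacceptor and class), the 5′ fragments had a log2 fold change of 1.11 (SE 0.39) and were called higher by edgeR. Of 110 fitted families 17.3% were called. Being the value behind the choice, the call is no finding here. It was not made without wild type 1, where the log2 fold change was 1.003, or without db/db 4, where it was 0.76. Scaling to the authors' effective library sizes, which lowered the median of all families to -0.67, gave 0.25 and no call.

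Of the 12 sequences 10 were fitted, 9 of them with a log2 fold change above 0, and the median was 0.95. For 5′ fragments of other tRNAs that median was -0.20. Of the 10, 1 was called higher, beside 5.57% of all fitted sequences, and nothing is read from it, since the isoacceptor was chosen on these fragments. It had the highest log2 fold change of the fitted Cys-GCA fragments. It is shown with the next 5′ fragment by size of increase, from which it differs by the last base:

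5′, bases 1 to 22, 22 nt: gggggtatagctcagtggtagA
5′, bases 1 to 23, 23 nt: gggggtatagctcagtggtagaG

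The 22 nt fragment had 16.1, 4.08, 21.9 and 17.8 CPM in wild type and 38.8, 59.8, 12.95 and 111 CPM in db/db, with a log2 fold change of 1.87 (SE 0.60). The 23 nt fragment had 5.36, 5.44, 23.6 and 17.1 CPM in wild type and 30.1, 50.8, 8.77 and 66.0 CPM in db/db, with a log2 fold change of 1.55 (SE 0.63). In both, db/db 3 lay within the wild type range and the other 3 db/db libraries above it. The more abundant 24 nt fragment had 46.5, 25.8, 69.2 and 76.8 CPM in wild type and 83.4, 52.6, 34.2 and 271 CPM in db/db, a log2 fold change of 1.01 (SE 0.53), and the genotypes overlapped. The 25 nt fragment gave 1.02 (SE 0.43) and the 18 nt fragment 0.94 (SE 0.52). In 0 of the 12 did the genotypes not overlap, beside 16.4% of all 2226 sequences. By cluster, the fragments that ended at bases 22 to 25 averaged 130 ± 53.6 CPM in wild type and 303 ± 212 CPM in db/db, those at bases 16 to 18 were at 68.4 ± 19.04 and 103 ± 56.2 CPM, and those at bases 27 to 30 at 59.6 ± 22.5 and 102 ± 33.2 CPM.

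The 3′ fragments ending in CCA held 30070 counts, 53.5% of Cys-GCA. They began at or after base 46. The 24 nt fragment that starts at base 52, the last base of the T stem's 5′ strand, held 31.7% ± 4.33 of their counts (SD, n = 8). The 15 sequences that began at bases 46 to 52 held 71.7% ± 3.42, and 12 began after base 52, within the T loop or at the base that follows it.

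Their summed level was 2497, 3248, 2035 and 4227 CPM in wild type 1 to 4 and 3781, 4116, 3820 and 3851 CPM in db/db 1 to 4. The db/db libraries were close together and lay within the range of the wild type, whose highest library was wild type 4. Means were 3002 ± 958 and 3892 ± 152 CPM. The family's log2 fold change was 0.52 (SE 0.32), not called. The value was -0.21 under the authors' effective library sizes and -0.06 when libraries were scaled to the totals implied by the RPM values. Of the 27 sequences 23 were fitted, 20 with a log2 fold change above 0 and a median of 0.39. Other fragments ending in CCA had a median of 0.03.

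The 24 nt fragment had 1019, 922, 672 and 1188 CPM in wild type and 1093, 1309, 1303 and 1105 CPM in db/db. Its log2 fold change was 0.34 (SE 0.32), with overlap of the genotypes at the level of wild type 4. The 29 nt fragment from base 47 had 159, 375, 258 and 620 CPM in wild type and 302, 446, 237 and 408 CPM in db/db, with overlap, and its log2 fold change was -0.03 (SE 0.39). The 16 nt fragment from base 60 had 127, 182, 113 and 234 CPM in wild type and 274, 228, 221 and 221 CPM in db/db (log2 fold change 0.52, SE 0.34).

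**Figure D4:**
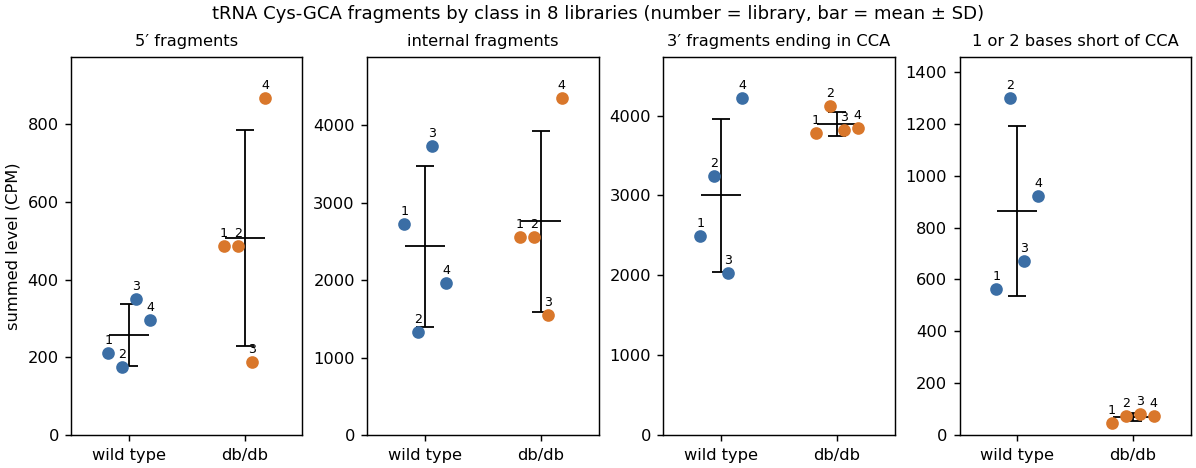
Summed CPM of the 5′ fragments, internal fragments, 3′ fragments ending in CCA and fragments short of CCA in each library, numbered 1 to 4 within its genotype, with black marks for the mean ± SD of 4 libraries and y axes that start at 0. The genotypes overlap in the first 3 panels, whereas all 4 wild type libraries (563 to 1301 CPM) lie above all 4 db/db libraries (45.6 to 79.8 CPM) in the last.

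Fragments short of CCA were found mainly in wild type β-cells. The 11 sequences summed to 563, 1301, 670 and 922 CPM in wild type 1 to 4 and to 45.6, 72.5, 79.8 and 73.2 CPM in db/db 1 to 4. No library of one genotype reached the range of the other, and the wild type mean of 864 ± 328 was 12.7 times the db/db mean of 67.8 ± 15.1 CPM. In 10 of them the last A was missing, and in 1 also the C before it. All 11 were without overlap between genotypes, beside 16 of all 135 members (4 more that end in CCA and 1 internal). Of all 2226 sequences, 16.4% did not overlap. Of the 11, 10 were fitted and all 10 were called lower in db/db, as were 9.44% of all fitted sequences. Of the 10, 9 passed the filter on low counts through the wild type libraries alone, with 0 db/db libraries over its limit, so that they had to differ and their calls are no support. With libraries thinned to the smallest tRF total, 7 were fitted and called lower. In the fit without thinning, the log2 fold changes of the 10 had a median of -3.74 and a range of -4.44 to -2.81. Fragments of other tRNAs that lacked 1 to 3 of these bases had a median of -2.98, and 134 of 158 were called lower. They passed the same filter, and how many did so through wild type alone was not counted, so these values are a description too.

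The most abundant, of 23 nt from base 52, had 241, 495, 292 and 373 CPM in wild type and 14.6, 30.8, 28.4 and 32.1 CPM in db/db, and its log2 fold change was -3.73 (SE 0.40). The next by level ran from bases 47 and 49 to base 74 and carried a changed base, described further on, at -3.76 (SE 0.55) and -3.40 (SE 0.53). The 3 largest falls are shown, since they differ only in where they start in the T loop, with the 2 bases left of CCA in capitals:

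short of CCA, bases 53 to 74, 22 nt: ttcaaatccgggtgccccctCC
short of CCA, bases 55 to 74, 20 nt: caaatccgggtgccccctCC
short of CCA, bases 59 to 74, 16 nt: tccgggtgccccctCC

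The 20 nt fragment had 24, 60, 27 and 64 counts in wild type and 3, 0, 7 and 3 counts in db/db, with a fitted log2 fold change of -4.44 (SE 0.60), which depends on the prior count. The 22 nt fragment had 15, 58, 15 and 72 counts in wild type and 0, 4, 10 and 2 in db/db (log2 fold change -3.89, SE 0.70). The 16 nt fragment gave -3.86 (SE 0.59). In each of them every wild type library lay above every db/db library.

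As a share of all Cys-GCA counts at the tRNA's 3′ end, those short of CCA made up 18.4%, 28.6%, 24.8% and 17.9% in wild type 1 to 4. In db/db 1 to 4 the share was 1.19%, 1.73%, 2.05% and 1.86%. Such a within-library share does not depend on how the libraries are scaled. The 95% Wilson intervals, which cover counting error only, were 16.6% to 20.3% for wild type 1, on 1712 counts, and 1.78% to 2.35% for db/db 3, on 9338 counts. Means were 22.4% ± 5.17 and 1.71% ± 0.368, a ratio of 13.1. Other tRFs had shares of 2.94% ± 1.26 (wild type) and 0.479% ± 0.0585 (db/db), a ratio of 6.13. Single tRNAs reached like values. Of 26 names with short ends in both genotypes, each with a higher share in wild type, 3 had a larger ratio than Cys-GCA, and the median ratio was 7.70. Cys-GCA lay above the other tRFs in 8 of 8 libraries. Among 42 tRNA names with at least 1000 counts at the 3′ end, Cys-GCA ranked 2 in wild type, after Phe-GAA at 32.4%, and 5 in db/db. The medians over these names were 0.756% in wild type and 0.0982% in db/db.

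Fragments with the same start could be set beside each other. For 10 starting positions, from base 47 to base 59, the table held both the fragment that ended in CCA and the one that lacked the last A. At bases 47, 48 and 49 these were fragments with T at base 50, and the forms with C there, which had no short counterpart among the sequences analysed, were left out. The share of the pair without the A averaged 25.4% to 39.7% in wild type and 0.973% to 4.16% in db/db, depending on the start. The lowest wild type value was 16.1% and the highest db/db value 7.02%, and the genotypes overlapped in 0 of the 10 pairs. The pairs rest on the same short fragments as above and were not set against such pairs of other tRNAs, so they are a description. For the start at base 52, counts without the A were 135, 364, 173 and 481 in wild type and 15, 17, 68 and 36 in db/db. Counts with the A were 570, 678, 398 and 1531 in wild type and 1126, 722, 3119 and 1239 in db/db. This made a share of 27.1% ± 6.95 for wild type and of 2.14% ± 0.626 for db/db.

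**Figure D5:**
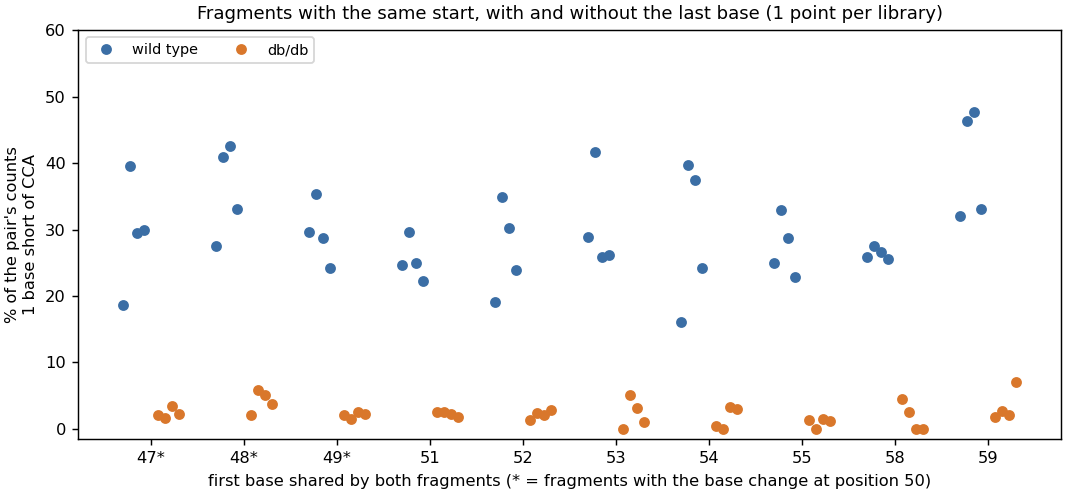
For each of 10 starting bases (x axis) the percent of counts in the fragment that lacks the last A, out of that fragment and the one ending in CCA (y axis), with 1 point for each wild type (blue) and db/db (orange) library and stars for the starts where both fragments have T at base 50. Wild type points lie between 16.1% and 47.6% and db/db points at or below 7.02% at every start.

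Some fragments carried base differences from the tRNA shown above. Whether each belongs to a gene copy was not tested. Positions were counted from 1 at the 5′ end of the tRNA shown above, and the base of that sequence is given first. C50T was in 13 members, G62A in 7, both in 2 of these, and T16G in 1. Bases 50 and 62 pair with each other in the T stem, so that the pair is C with G in the tRNA shown, T with G in fragments with C50T alone, and T with A where both changes are present. The 28 nt fragment is given as an example, with the changed base in capitals:

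short of CCA with C50T, bases 47 to 74, 28 nt: cccTggttcaaatccgggtgccccctcc

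Over both bases 12 fragments ending in CCA were read, with 410 to 3072 counts per library. The C50 G62 form took 54.6% ± 9.39 of them in wild type and 47.3% ± 7.81 in db/db, and the T50 G62 form 40.9% ± 8.60 and 46.2% ± 7.69, with overlap in both. The rarer T50 A62 form took 5.84%, 4.19%, 4.39% and 3.90% in wild type 1 to 4 and 6.23%, 6.64%, 6.67% and 6.41% in db/db 1 to 4. The means were 4.58% ± 0.863 and 6.49% ± 0.210, and the genotypes did not overlap. Over all fragments ending in CCA that cover base 62, A62 made up 3.69% ± 0.444 (wild type) and 5.57% ± 0.554 (db/db), without overlap. This set includes the T50 A62 fragments, so both shares rest partly on the same counts and are not separate results. Neither share was tested, and such shares of other tRNAs were not looked at. Among the fragments with A62, that of 24 nt from base 52 was the other Cys-GCA sequence called higher. Its log2 fold change was 1.05 (SE 0.40), and 5.57% of all fitted sequences were called higher. Its call was lost with RLE factors, without a normalisation factor, with the authors' effective sizes or the implied totals, and without wild type 1, wild type 2, wild type 1 and 2 together, db/db 1, db/db 2 or db/db 4. It had 15, 22, 23 and 57 counts in wild type and 66, 52, 153 and 79 counts in db/db. It was named after its values were seen.

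The share with T50 differed between classes of fragments. T50 was in 49.1% ± 8.88 (SD, n = 8) of the counts of CCA-ending fragments over base 50 and in 2.84% ± 1.07 of those of internal fragments over base 50, where 3 of 55 sequences carried it. All 3 fragments short of CCA that covered base 50 carried T there, and no C50 counterpart was among the sequences analysed here. Whether this reflects how reads were matched to tRNAs was not tested.

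The families whose levels moved most like Cys-GCA across the 8 libraries were found by the root mean square difference of log2(CPM + 1) after centring each family, among 109 others. For the 5′ family they were internal Glu-CTC at 0.387, internal Pro-TGG at 0.412 and 5′ Pro-AGG at 0.418, where the median over all was 0.897. For the 3′ family they were 3′ Arg-CCG at 0.145, 3′ Arg-ACG at 0.209 and 3′ Thr-TGT at 0.219, with a median of 0.667. The points are the same 8 libraries and share their depth, so these values are a description.

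Without counts enough to be fitted were 28 of the 135 members, with totals of 57 to 158 counts, 21 of them internal. Of the 107 fitted members, 2 were called higher and 10 lower, as given above. The isoacceptor was chosen on this contrast, so nothing is read from these counts beside the 15.0% of all sequences. Without wild type 3 the called members were 23, of which 13 were higher, and without db/db 3 they were 19, of which 8 were higher. Without wild type 2, wild type 1 and 2 together or db/db 4, and with the authors' effective sizes or the implied totals, 0 were called higher, whereas DESeq2 called 4. All of the lower calls in the fit of 8 libraries were fragments short of CCA.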

How the data were processed

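The labels map 4 libraries to each genotype and give no batch and no pairing. Libraries were prepared with a QIAseq miRNA kit, which marks molecules with unique identifiers. According to the methods of the study, reads longer than 16 nt were collapsed by identifier, aligned to GRCm38.p6 and matched with bowtie 1, allowing no mismatch, to mature tRNAs. The deposited counts are the authors' unique molecules per sequence, not normalised, and every test used them. The deposited score is the authors' RPM rounded to a whole number, and the deposited log2 values are the authors' normalised levels, made by a method that the sources used here do not state. Both served only to recover library totals (1206615 to 5316715) and effective sizes for alternatives. Words for the direction of change in the table, the authors' own comparison, were not used. No column of other samples was present. Each Cys-GCA sequence reached 5 counts in 5 or more libraries.

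The isoacceptor, its sets and the rules below were chosen with earlier results of these data known. Fragments ending in CCA were 3′, those beginning with the most abundant start (8 bases, at least 5 sequences) of their isoacceptor were 5′, and the rest were internal. The tRNA was put together from Cys-GCA fragments by overlaps of at least 11 bases. edgeR 4.0.16 in R 4.3.3 was fitted to the whole table (quasi-likelihood test on genotype alone, TMM scaling, Benjamini-Hochberg adjustment, and filterByExpr set to 10 counts per library and 15 in total), once for sequences and once, with its own scaling, for families. To obtain a standard error, the log2 fold change was divided by the root of its F value. Paired tests flipped the signs of 8 library differences (256 patterns, SciPy 1.17.1, Python 3.11.15). P-values measure the spread between these pooled preparations. The procedures were tested on simulated data.

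Named were the 3 sequences of highest mean CPM in each set, the 3 largest log2 fold changes in each direction and the 3 families most like the 5′ and 3′ families with a mean of at least 10 CPM. Alternatives were other normalisation factors, the authors' effective sizes, the implied totals, no filter, DESeq2 1.42.0, a tolerant class rule (starts at bases 1 to 3, ends within the last 3 bases), leaving out abundant sequences and leaving out each library. Leaving out wild type 1 and 2 together and thinning to the smallest tRF total were added after the data had been seen.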

Additional observations from a re-analysis of the deposited data

Results flagged for a closer look

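In 112 groups of 4 libraries that were examined, 5 values lay far from the other 3 of their genotype. Chance alone flags about 1 group in 20. Of these, 3 are of library db/db 3 and concern the same counts, the bases at positions 50 and 62 in fragments ending in CCA. The C50 G62 form took 35.6% there and 51.1% to 51.5% in the other db/db libraries, the T50 G62 form 57.7% against 42.1% to 42.6%, and T50 over base 50 took 64.4% against 48.5% to 48.9%. The fragment of bases 55 to 74 had 0 CPM in db/db 2 beside 2.68 to 2.92 CPM in the others. The 16 nt fragment of bases 60 to 75 had 274 CPM in db/db 1 beside 221 to 228 CPM in the others. The 5 flags in 112 groups are no more than that rate gives, so no library is taken as set apart. Causes were not tested.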

How the results depend on the processing

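No paired analysis was possible because no replicate number in the labels links a db/db library to a wild type one. With the authors' effective library sizes, 163 sequences were called changed in place of 275, and the log2 fold changes of the Cys-GCA families were 0.25 (5′), -0.21 (3′) and -0.87 (internal), beside a median over all families of -0.67. The implied totals gave -0.058 for the 3′ and -0.61 for the internal family (median -0.58). The higher calls, 37.1% of called sequences, were 8.59% with the authors' sizes and 22.9% with the implied totals. Under the tolerant class rule 9 families were called, beside 19, and it put the 3′ family at 0.19. The 5′ family was also not called with the implied totals (0.56), with the tolerant rule (1.13) or without wild type 1 and 2 together (0.76). Leaving out each library in turn gave 10 to 23 called Cys-GCA sequences (13 of 23 higher without wild type 3), 0.38 to 0.87 for the 3′ family, with the highest value without wild type 4, and 0.94 to 1.72 percentage points for the 5′ share against other tRFs, highest without wild type 2. That share difference was 2.34 points without the most abundant Cys-GCA sequence. Without the 3 most abundant sequences of the table it was -0.777 points and the difference in 3′ length 1.10 nt. The internal family ranged from -0.31 to 0.14 when libraries were left out and lay above 0 with RLE factors and DESeq2 (0.049 each), with thinning (0.0006) and with the tolerant rule (0.39). Thinning to the smallest tRF total gave 9 called Cys-GCA sequences, 7 of them lower. The causes were not tested. The tests of internal share and 3′ share, which are not separate results, kept their direction and side of the threshold in the alternatives run. The share short of CCA kept its direction, and its difference stayed between -22.2 and -18.6 points. Depth limits the rarer fragments, of which 28 were not fitted.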
